A study of Mus musculus with 12 samples.

Results

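The genes described here are the enzymes and small proteins that handle oxidants, glutathione and foreign compounds in the mouse renal medulla. They were chosen by symbol. The families taken were the glutathione transferases, glutathione peroxidases, peroxiredoxins, thioredoxins and glutaredoxins, superoxide dismutases, catalase, and the enzymes of glutathione synthesis and reduction. Also taken were heme oxygenases, metallothioneins, aldehyde dehydrogenases, carbonyl and aldo-keto reductases, epoxide hydrolases, and P450 families 1 to 4. Quinone reductases and gamma-glutamyl, glucuronosyl- and sulfotransferases were also looked for, but no gene of these families had a clone that named it alone. The search gave 56 of 6786 measured genes, on 69 clones: 44 genes had 1 clone, 11 had 2 and 1 had 3. Sod2, Sod3, Gclm and Nqo1 were not analysed here.

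RNA came from 6 mice, of which 3 had been water-restricted and 3 were controls. The sources used here do not state strain, sex, age or how long water was restricted. Amplified RNA from the renal medulla of a restricted and a control mouse was put on each 2-colour array, and all 9 pairs of mice were compared on 12 arrays, 3 pairs having been run in both dye orientations. On 6 arrays the restricted mouse was labelled with Alexa Fluor 546 (the 546 arrays below), and on the other 6 with Alexa Fluor 647 (the 647 arrays).

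Glutathione is a small peptide of glutamate, cysteine and glycine that keeps the cell interior reduced. Peroxidases use it, or the protein thioredoxin, to turn peroxides into water, and transferases join it to reactive compounds so that they can be exported. In the kidney, enzymes of oxidant defence and detoxification are abundant in the proximal tubule, while the medulla is known as a hypertonic and poorly oxygenated tissue in which cells accumulate osmolytes.

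Values are given as a level for each mouse on the log2 scale, fitted so that the 6 levels of a gene sum to 0, and as the difference between the means of both groups with its standard error (SE, n = 3 mice per group). Which dye is the numerator of the deposited ratio is not given, so the direction of a difference is not known. If each ratio is 546 over 647, positive differences mean more transcript in restricted mice, and if it is 647 over 546, they mean less. Under either of these readings by dye, a positive and a negative gene differ in contrary directions. It is also not known whether the authors had already turned their ratios to one group over the other, and then the side itself can change. Sides and values are those of the reading by dye, unless said otherwise. In bulk tissue, fewer cells of a type and less RNA per cell cannot be told apart. The labels name the mice separately, so the test compares a fitted level per mouse. The spread of these levels holds array error as well as differences between mice.

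None of the 56 genes differed between groups past the threshold of 0.05 by limma with Benjamini-Hochberg adjustment over all genes (adjusted p from 0.771 to 0.996). Nor did any other gene (0% called, 0 of 6786). The genes divided evenly, 28 on the positive and 28 on the negative side, with a median of 0.00, as over all genes, of which 50.7% were positive. Their differences were larger than usual in size: 13 of 56 exceeded 0.5 on the log2 scale, against 5.48% of all genes, and the median absolute difference was 0.20 against 0.13. An unadjusted limma p under 0.05 was reached by 12 of 56, or 21.4%, against 4.97% of all genes. Of these 12, 8 were positive (background 3.21%) and 4 negative (1.75%). In 14 of 56 the 3 levels of one group all lay above those of the other, against 9.8% of all genes. Of these 14, 10 were positive (background 5.94%) and 4 negative (3.86%). On all 12 arrays 4 of 56 kept 1 sign (background 2.05%). These shares are descriptions, since the genes were chosen as a family with results in view.

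The count of 12 depended on single mice and on how the ratios are read. It fell to 7 when water-restricted mouse 1 was left out, to 3 for water-restricted mouse 3 and to 6 for control mouse 2, where 3.12%, 2.15% and 3.8% of all genes had such a p. Without water-restricted mouse 2, control mouse 1 and control mouse 3 it was 12, 11 and 8 (4.48%, 3.71% and 3.02% of all genes). Each of these fits also has fewer mice to compare. If the ratios had been turned before deposit, only 2 of 56 would have an unadjusted p under 0.05 (5.35% of all genes), 5 would separate the groups (11.9%), and 24 would change sign. Gstm2, Gstm5 and Aldh7a1, of smallest limma p among the 56 when read by dye, would then have differences of -0.01, 0.00 and 0.04. Gpx3 would have 0.53 (SE 0.28) and Gss 0.55 (SE 0.24), while Txnip would stand at 0.66 (SE 0.24), Mt2 at 0.07 and Akr1c14 at -0.83 (SE 0.43), each across 0 from its value by dye. No gene would be called between groups. The array of widest spread, which set water-restricted mouse 2 and control mouse 2 together, had an SD of 1.21 over spots against 0.515 to 0.764 on the others. Without it, 10 genes had such a p (6% of all genes), 9 of them among the 12, and 12 separated the groups (11.1%).

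A fit that treats mice as random effects, chosen after seeing the data, called 4 of the 56, against 1.46% of all genes. They were Gstm2, Gpx3, Mt2 and Gss, with limma adjusted p of 0.026, 0.0383, 0.0455 and 0.0455. Without the widest array it called 7 of the 56 (Aldh7a1, Akr1c14 and Prdx4 besides these 4), against 2.46% of all genes. These calls changed with single mice. Without control mouse 1, Gpx3, Gss and Mt2 remained, Gstm2 did not (limma adjusted p = 0.106), and Aldh7a1 (0.0448) and Cat (0.0493) were added. Without water-restricted mouse 2, Gpx3 remained, the other 3 did not (0.065 to 0.124), and Aldh7a1 (0.0317), Prdx4 (0.0434) and Akr1c14 (0.0464) were added. With any of the other 4 mice left out, none of the 56 passed. Calls over all genes fell too, from 99 with all mice. They were 52 without control mouse 1 and 68 without water-restricted mouse 2. Without water-restricted mice 1 and 3 they were 2 and 12, and without control mice 2 and 3 they were 28 and 11.

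**Figure D1:**
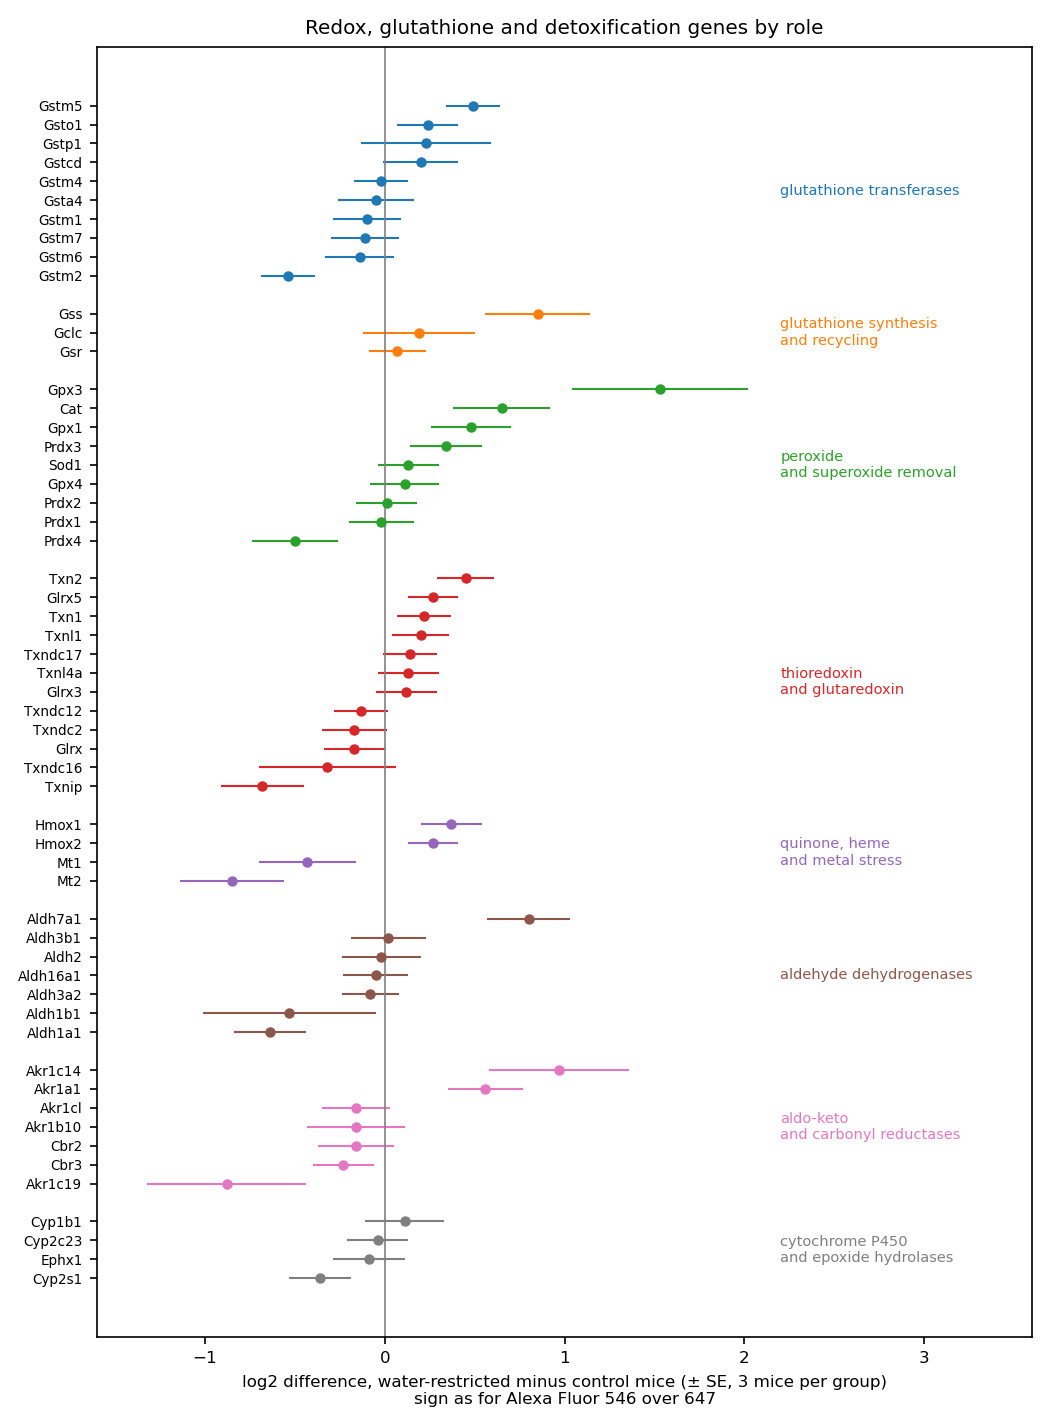
Log2 difference between water-restricted and control mice (horizontal axis, points, bars are the SE, 3 mice per group) for the 56 genes in 8 role groups. Gpx3 lies farthest to the positive side at 1.53 and Akr1c19 farthest to the negative side at -0.88, and most other genes lie within 0.5 of 0.

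Enzymes that remove peroxide and superoxide lay mostly on the positive side, 7 of 9, with a median of 0.13. Gpx3, the secreted glutathione peroxidase of plasma that is made largely in the kidney, had the largest difference of the 56 genes. Its levels were 0.44, 0.36 and 1.5 in water-restricted mice 1, 2 and 3, and 0.33, -1.10 and -1.53 in control mice 1, 2 and 3. The groups did not overlap, but control mouse 1 lay just under the restricted mice and far above both other controls. The difference was 1.53 (SE 0.49), or 2.89-fold, with a limma unadjusted p of 0.013 and an adjusted p of 0.771. On 11 of 12 arrays the sign was positive. The exception was the 647 array of water-restricted mouse 2 with control mouse 1, at -1.23, whereas the swapped array of the same mice gave 0.77.

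Gpx3 was also the only one of the 56 genes that differed between mice of the same group past the threshold (limma F-test on 12 arrays, F = 21.6, adjusted p = 0.0372), against 0.206% of all genes. Without the widest array 2 of the 56 passed that test, against 0.737% of all genes. With ratios read as already turned, no gene passed it.

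Cat, the catalase of peroxisomes, had levels of 0.48, 0.33 and 0.16 in the restricted mice and 0.19, -0.93 and -0.22 in the controls. Control mouse 1 fell inside the restricted range. The difference was 0.65 (SE 0.27, limma adjusted p = 0.961), or 0.34 without control mouse 2. The cytosolic peroxidase Gpx1 had -0.14, 0.19 and 0.67 against -0.33, -0.23 and -0.16, with no overlap by a narrow margin, and a difference of 0.48 (SE 0.22), or 0.26 without water-restricted mouse 3. Its clones gave 0.58 and 0.38, and the 546 and 647 arrays gave 0.73 and 0.22. Prdx3, the mitochondrial peroxiredoxin, had 0.34 (SE 0.20).

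Prdx4, the peroxiredoxin of the endoplasmic reticulum, stood on the negative side at -0.50 (SE 0.24), and its 2 clones agreed at -0.58 and -0.43. Its levels were -0.30, 0.24 and -0.69 in restricted mice and 0.46, 0.08 and 0.21 in controls, so the groups overlapped through water-restricted mouse 2. Without water-restricted mouse 3 the difference was -0.29. The remaining members were near 0. Cytosolic superoxide dismutase Sod1 had 0.13 (SE 0.17), the lipid peroxidase Gpx4 0.11 (SE 0.19), and the cytosolic peroxiredoxins Prdx2 0.01 (SE 0.17) and Prdx1 -0.02 (SE 0.18). The signs of Sod1, Gpx4 and Prdx1 turned under other settings, as given with the alternatives.

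All 3 measured genes of glutathione synthesis and recycling were positive, with a median of 0.19. Gss, glutathione synthetase, which adds glycine in the last step, had levels of 0.55, 0.58 and 0.14 in the restricted mice and 0.17, -1.0 and -0.44 in the controls. Control mouse 1 slightly exceeded water-restricted mouse 3. The difference was 0.85 (SE 0.29), or 1.80-fold, with a limma adjusted p of 0.771. It was 1.40 on the 546 arrays and 0.29 on the 647 arrays, and 0.56 without control mouse 2.

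Gclc, the catalytic subunit of the enzyme for the first and rate-limiting step, had 0.26, 0.30 and -0.27 against 0.39, -0.79 and 0.12. Only control mouse 2 stood clearly below the rest, and the difference was 0.19 (SE 0.31), or -0.16 without that mouse. Gsr, which reduces oxidised glutathione with NADPH, had 0.07 (SE 0.16).

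Glutathione transferases were divided, with 4 of 10 positive and a median of -0.03. Gstm2 and Gstm5, mu-class members from 1 gene cluster, lay on opposite sides and varied little between mice of a group. Gstm2 had -0.30, -0.20 and -0.31 in restricted mice and 0.18, 0.42 and 0.21 in controls, and was negative on all 12 arrays, from -0.21 to -0.99. Its difference was -0.54 (SE 0.15, limma unadjusted p = 0.00608, adjusted p = 0.771), the smallest p of the 56 genes. Both of its clones were negative, at -0.66 and -0.42.

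Gstm5 had 0.10, 0.29 and 0.34 in restricted mice and -0.18, -0.30 and -0.25 in controls. It was positive on all 12 arrays, from 0.18 to 0.96, and its difference was 0.49 (SE 0.15, limma adjusted p = 0.771), or 0.37 (SE 0.17) without the widest array. For both genes the groups did not overlap, and both dye orientations gave nearly the same value, -0.55 and -0.52 for Gstm2 and 0.49 and 0.48 for Gstm5.

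The other mu-class genes, Gstm1, Gstm4, Gstm6 and Gstm7, lay between -0.14 and -0.02. Near-identical mu-class transcripts may share the signal of a clone, which could not be examined. Outside that class, Gstcd, named for its transferase-like domain, had 0.20 (SE 0.21), Gsto1 had 0.24 (SE 0.17), Gstp1 0.23 (SE 0.36), with water-restricted mouse 3 at 0.91 and control mouse 1 at -0.63, and Gsta4, which conjugates lipid aldehydes, -0.05 (SE 0.21).

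Promoters of these neighbours, 300 bases mostly upstream of the annotated start (RefSeq, GRCm38.p6), are shown because the pair lies on opposite sides, with that of Gpx3, the gene of largest difference. Capitals mark matches to TGACNNNGC, the core of the antioxidant response element to which the transcription factor NRF2 binds, on either strand.
Gstm2, chr3:107986371-107986670, minus strand: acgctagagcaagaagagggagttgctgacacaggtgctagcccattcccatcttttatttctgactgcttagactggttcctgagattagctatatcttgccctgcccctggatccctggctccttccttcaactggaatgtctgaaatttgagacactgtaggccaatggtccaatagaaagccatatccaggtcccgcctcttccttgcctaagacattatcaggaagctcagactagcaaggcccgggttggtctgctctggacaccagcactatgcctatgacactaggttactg
Gstm5, chr3:107895604-107895903, plus strand: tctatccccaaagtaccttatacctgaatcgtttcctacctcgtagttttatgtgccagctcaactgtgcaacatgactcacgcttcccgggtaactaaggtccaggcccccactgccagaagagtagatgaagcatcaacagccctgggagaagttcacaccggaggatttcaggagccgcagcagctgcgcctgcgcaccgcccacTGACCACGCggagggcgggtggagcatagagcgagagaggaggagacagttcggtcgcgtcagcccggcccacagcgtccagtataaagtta
Gpx3, chr11:54902604-54902903, plus strand: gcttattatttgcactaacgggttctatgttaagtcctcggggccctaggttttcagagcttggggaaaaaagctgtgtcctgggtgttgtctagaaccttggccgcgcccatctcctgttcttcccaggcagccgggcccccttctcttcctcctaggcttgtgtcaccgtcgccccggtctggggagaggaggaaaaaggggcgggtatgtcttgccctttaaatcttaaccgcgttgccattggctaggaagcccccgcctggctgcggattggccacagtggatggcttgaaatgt

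Gstm5 held 1 match and Gstm2 and Gpx3 held none in these windows. Promoters were found for 47 of the 56 genes, 8 of which (17%) held a match in at least 1 annotated start, against 14% of 27025 genes. The 8 were Gstm5, Gstm7, Prdx1, Sod1, Mt2, Akr1cl, Akr1c19 and Txndc2, whose differences ran from -0.88 to 0.49. A match describes the letters only.

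Metallothioneins, small cysteine-rich proteins that bind zinc and copper, lay on the negative side, and the heme oxygenases on the positive side. Mt2 had -0.99, -0.14 and -0.15 in restricted mice 1, 2 and 3, and -0.03, 0.70 and 0.61 in controls. The groups did not overlap, although control mouse 1 stood close to water-restricted mice 2 and 3. The difference was -0.85 (SE 0.29, limma adjusted p = 0.771), with a negative sign on 11 of 12 arrays. Its 2 clones differed in size, at -0.40 (SE 0.32) and -1.31 (SE 0.28).

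Mt1, the adjacent gene, had -0.64, -0.04 and 0.03 against -0.28, 0.56 and 0.38, a difference of -0.43 (SE 0.27), and its groups overlapped through control mouse 1. It was -0.23 without water-restricted mouse 1, -0.69 without control mouse 1 and -0.27 without control mouse 2. In both genes water-restricted mouse 1 was lowest and control mouse 2 highest. Metallothionein transcripts are closely alike, and shared signal between the clones could not be examined.

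The promoters of both metallothioneins are shown because they are textbook targets of the metal-responsive factor MTF-1. Capitals mark the core of the metal response element, searched as TGCACNC and TGCGCNC on either strand with overlapping matches counted separately, a search added after the values were seen.
Mt1, chr8:94178839-94179138, plus strand: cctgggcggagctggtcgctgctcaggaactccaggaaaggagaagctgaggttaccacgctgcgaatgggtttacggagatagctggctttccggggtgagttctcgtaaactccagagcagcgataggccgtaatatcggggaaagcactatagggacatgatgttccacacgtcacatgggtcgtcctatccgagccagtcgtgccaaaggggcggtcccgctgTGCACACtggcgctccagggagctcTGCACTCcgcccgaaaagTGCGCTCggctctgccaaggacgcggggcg
Mt2, chr8:94172368-94172667, plus strand: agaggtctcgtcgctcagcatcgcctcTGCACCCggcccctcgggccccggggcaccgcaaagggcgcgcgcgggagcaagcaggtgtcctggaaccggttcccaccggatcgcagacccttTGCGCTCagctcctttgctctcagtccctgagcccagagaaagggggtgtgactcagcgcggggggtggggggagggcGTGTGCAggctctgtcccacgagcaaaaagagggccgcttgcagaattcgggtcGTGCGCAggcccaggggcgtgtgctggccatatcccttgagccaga

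Mt1 held 3 matches and Mt2 held 4. At least 3 were present in 1.97% of the 32851 promoters, and at least 1 in 25.7%.

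Hmox1, the inducible heme oxygenase, had 0.26, 0.04 and 0.26 in restricted mice and -0.23, -0.39 and 0.07 in controls, a difference of 0.37 (SE 0.17, limma adjusted p = 0.996) with a slight overlap through control mouse 3. Its constitutive relative Hmox2 had 0.27 (SE 0.14), with 0.60 on the 546 arrays and -0.05 on the 647 arrays.

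**Figure D2:**
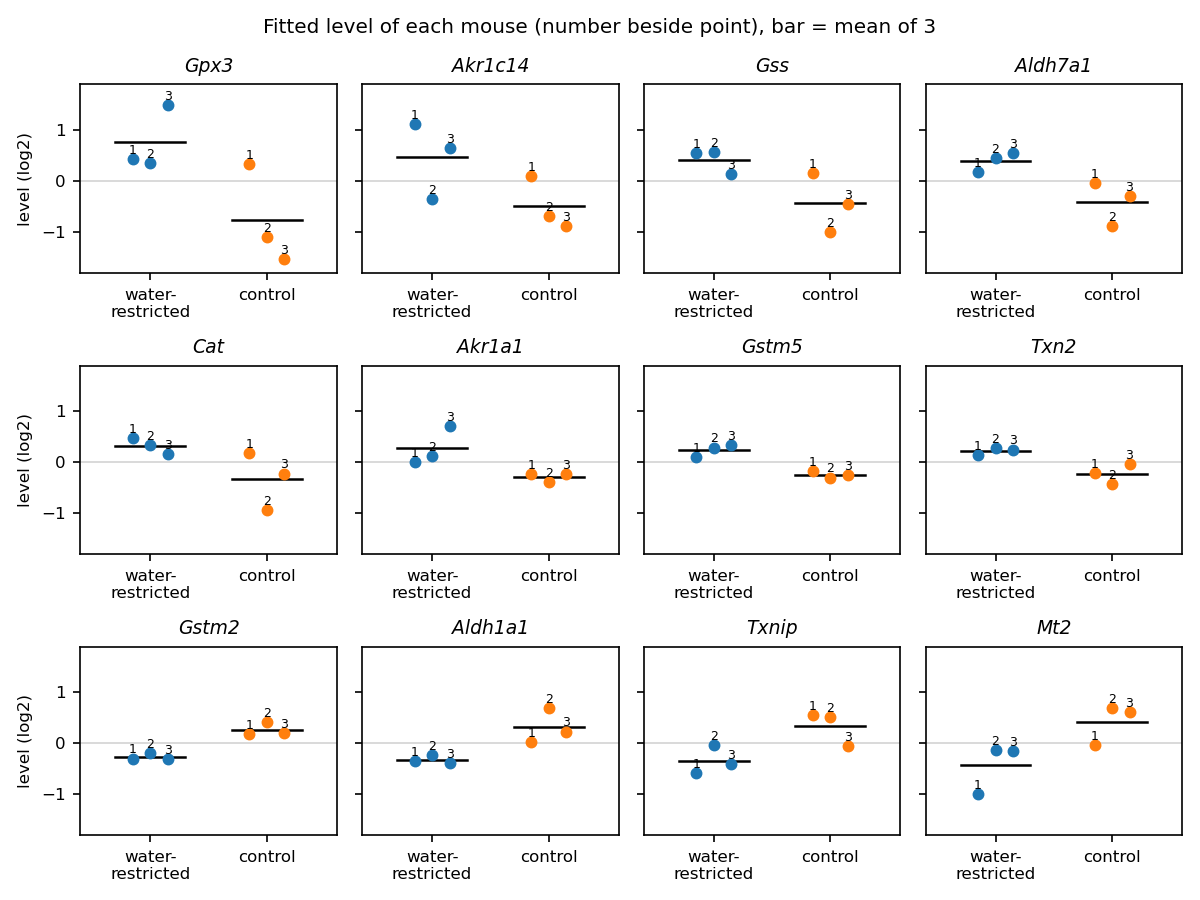
Fitted log2 level (vertical axis) of each mouse, numbered 1 to 3 within its group, for the 12 genes with an unadjusted limma p under 0.05. Black bars are group means. Gstm2, Gstm5 and Txn2 are tight within groups, whereas in Gpx3, Gss and Cat control mouse 1 sits near the restricted mice.

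Thioredoxin and glutaredoxin genes were mixed, 7 of 12 positive with a median of 0.12. Txn2, the thioredoxin of mitochondria, had 0.15, 0.28 and 0.25 in restricted mice and -0.21, -0.43 and -0.03 in controls. The groups did not overlap and all 12 arrays were positive, from 0.02 to 1.16. The difference was 0.45 (SE 0.16, limma adjusted p = 0.859). The cytosolic form, Txn1, had 0.22 (SE 0.15), and Glrx5, a mitochondrial glutaredoxin of iron-sulfur cluster assembly, 0.27 (SE 0.14).

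Txnip, which binds thioredoxin and inhibits it, was on the other side, at -0.68 (SE 0.23, limma adjusted p = 0.771). Its levels were -0.59, -0.03 and -0.40 in restricted mice and 0.56, 0.52 and -0.06 in controls, overlapping between water-restricted mouse 2 and control mouse 3. The dye orientations gave unlike values, -1.34 on the 647 arrays and -0.02 on the 546 arrays. Its dye term is given below.

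Of the others in this group, Txndc16, an endoplasmic reticulum protein with a thioredoxin domain, had -0.32 (SE 0.38), or 0.01 without the widest array. Txnl4a, matched by name but known as a component of the spliceosome, had 0.13 (SE 0.17). The other 6, Glrx, Glrx3, Txndc2, Txndc12, Txndc17 and Txnl1, lay between -0.17 and 0.20.

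Enzymes that oxidise or reduce aldehydes and ketones included the largest differences after Gpx3 on either side. Among 7 aldehyde dehydrogenases, 2 were positive. Aldh7a1, which oxidises lysine-derived aldehydes and betaine aldehyde, the precursor of the osmolyte betaine, had 0.18, 0.46 and 0.56 in restricted mice and -0.04, -0.87 and -0.29 in controls. The groups did not overlap, and all 12 arrays were positive, from 0.10 to 1.91. The difference was 0.80 (SE 0.23, limma unadjusted p = 0.00797, adjusted p = 0.771), or 1.74-fold, with 0.85 on the 546 and 0.76 on the 647 arrays.

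Aldh1a1, which makes retinoic acid, had -0.34, -0.23 and -0.39 against 0.03, 0.70 and 0.23, a difference of -0.64 (SE 0.20, limma adjusted p = 0.771). Its value on the widest array was -2.13, and without that array the difference was -0.36 (SE 0.26). Aldh1b1 had -0.53 with that array and 0.08 without it. The remaining 4 genes, Aldh2, Aldh3a2, Aldh3b1 and Aldh16a1, lay between -0.08 and 0.02.

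Of 7 aldo-keto and carbonyl reductases, 2 were positive. Akr1a1, an NADPH-dependent aldehyde reductase that in mice also serves ascorbate synthesis, had 0.01, 0.12 and 0.71 in restricted mice and -0.23, -0.38 and -0.23 in controls, without overlap. The difference was 0.56 (SE 0.21, limma adjusted p = 0.887), and its 3 clones gave 0.47, 0.65 and 0.56. Without water-restricted mouse 3 it was 0.35.

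Akr1c14, a hydroxysteroid dehydrogenase, had 1.13, -0.34 and 0.66 against 0.10, -0.69 and -0.87, with overlap through water-restricted mouse 2. The difference was 0.97 (SE 0.39, limma adjusted p = 0.936), or 1.34 without the widest array, which read -1.59. It was 0.14 on the 546 arrays and 1.80 on the 647 arrays (adjusted p of the dye term 0.0636 by limma). Its related gene Akr1c19 had 0.06, -0.46 and -0.91 against -0.30, 1.47 and 0.15. Control mouse 2 stood alone at the top, and the difference of -0.88 (SE 0.44) had an adjusted p of 0.996 by limma and was -0.36 without that mouse. Akr1b10, Akr1cl, Cbr2 and Cbr3 lay between -0.23 and -0.16.

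The 4 measured P450 and epoxide hydrolase genes lay between -0.36 and 0.11. Cyp2s1, a P450 expressed outside the liver, had -0.12, -0.41 and -0.02 in restricted mice and 0.05, 0.12 and 0.38 in controls, without overlap, and a difference of -0.36 (SE 0.17, limma adjusted p = 0.996). Cyp1b1 had 0.11 (SE 0.22), with water-restricted mouse 1 at 0.51 as the highest level. The arachidonic acid epoxygenase Cyp2c23 had -0.04 (SE 0.17), and Ephx1, the microsomal epoxide hydrolase, -0.09 (SE 0.20).

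Values moved with the dye in 7 of the 56 genes (limma dye term past the threshold after adjustment), or 12.5%, against 6.62% of all genes. The dye term is the part of a ratio that keeps its sign when the dyes are exchanged. It was 0.63 (SE 0.13) in Txnip, 0.57 (SE 0.10) in Gss, 0.56 (SE 0.11) in Gpx3, 0.43 (SE 0.06) in Sod1, 0.38 (SE 0.09) in Txnl4a, 0.31 (SE 0.08) in Aldh16a1 and 0.31 (SE 0.08) in Prdx4, positive in all 7 (background 5.11% for positive terms). Sod1 shows it plainly: all 546 arrays gave 0.41 to 0.82, and the 647 arrays gave -0.68 to 0.03. In 37 of the 56 genes both orientations gave the same sign, against 47.8% of all genes.

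**Figure D3:**
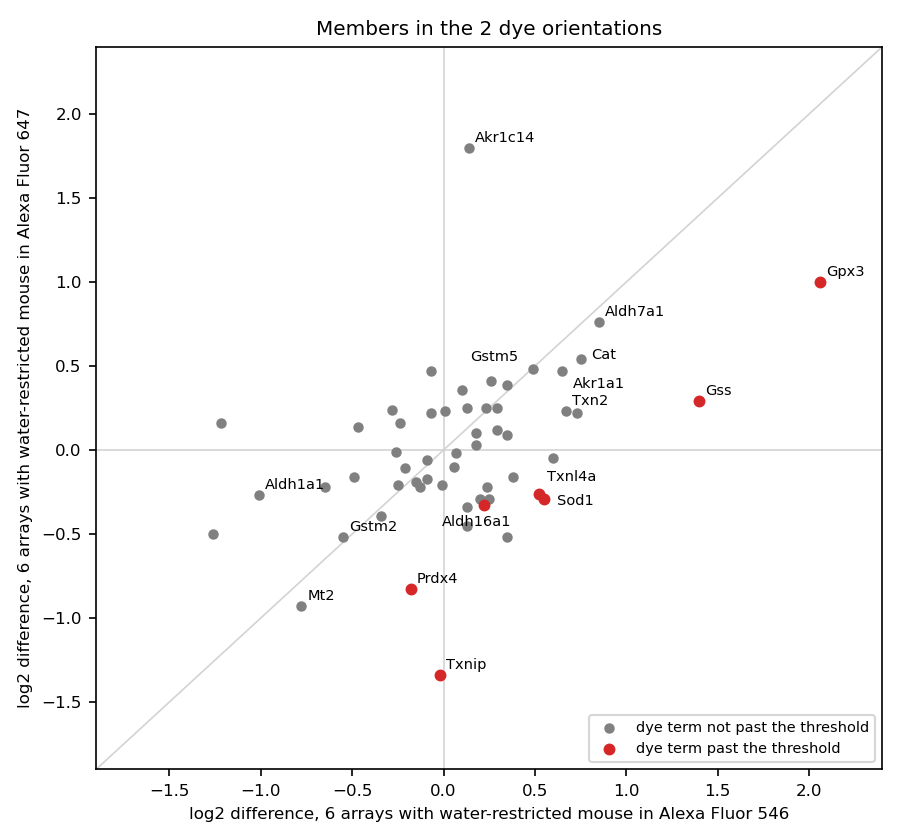
Log2 difference of each gene on the 6 arrays with the water-restricted mouse in the 546 dye (horizontal) and on the 6 with it in the 647 dye (vertical). Red points are the 7 genes with a dye term past the threshold, which lie below the diagonal, and Gstm2, Gstm5 and Aldh7a1 lie close to it.

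Genes that supply or regulate these enzymes were described from separate lists. In the cysteine supply and mercapturate list 7 of 16 genes were measured, all 7 positive, with a median of 0.34. They include Acy3, the aminoacylase that acts on mercapturates, at 1.03 (SE 0.34), Cbs, cystathionine beta-synthase of the pathway to cysteine, at 0.77 (SE 0.25), and Ahcy, which hydrolyses S-adenosylhomocysteine, at 0.72 (SE 0.16). Each of these 3 was positive on all 12 arrays. None passed the limma test on mouse levels (adjusted p from 0.559 to 0.771 for these 3). An unadjusted p under 0.05 was reached by 3 of 7, against 4.97% of all genes. With mice as random effects Ahcy (limma adjusted p = 0.0232) and Acy3 (0.0462) were called.

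Among regulators and targets of NRF2, 9 of 13 measured genes (25 listed) were positive, with a median of 0.11. Mgst3, a microsomal glutathione transferase, had 0.69 (SE 0.20), Mafg, a small MAF partner of NRF2, 0.59 (SE 0.23), and Abcc1, an exporter of glutathione conjugates, -0.24 (SE 0.16). Nfe2l2, which encodes NRF2 itself and was picked out after its value was seen, had -0.08 (SE 0.18). Of 12 measured selenoprotein and methionine sulfoxide reductase genes 9 were positive, with a median of 0.14, among them Msrb1 at 0.59 (SE 0.36), the selenium carrier Selenop at 0.57 (SE 0.22) and Selenow at 0.54 (SE 0.42). Of 8 genes of NADPH supply 5 were positive, with a median of 0.09, among them Taldo1 and Rpe of the pentose phosphate pathway at 0.34 (SE 0.27) and 0.28 (SE 0.16), and malic enzyme, Me1, at 0.19 (SE 0.16). No gene of these 3 lists passed the limma test on mouse levels, and with mice as random effects Mgst3 alone was called (limma adjusted p = 0.044).

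Markers of nephron segments lay on both sides, beside these genes. Of 20 proximal tubule genes listed 4 were measured, all positive, with a median difference of 1.24. None passed the limma test on mouse levels (adjusted p from 0.553 to 0.996). Their mean levels were 0.50, 0.54 and 0.69 in restricted mice and 0.25, -1.20 and -0.79 in controls. The single genes were not alike in control mice 1, 2 and 3. Slc22a7 had 0.91, -1.23 and -0.68 there, and Gatm 0.65, -1.44 and -1.43. Lrp2 had 0.10, -1.40 and -0.27, and Miox, nearly level, -0.64, -0.73 and -0.76. Like the mean of these markers, Gss, Cat, Aldh7a1, Gclc, Gstm5 and Txn1 had their highest control level in control mouse 1 and their lowest in control mouse 2. In Gpx3 control mouse 1 likewise had the highest control level. Mt1, Mt2 and Akr1c19 had the reverse, with control mouse 1 lowest and control mouse 2 highest of the controls. How often either order occurs over all genes was not computed. Of 16 principal cell genes 7 were measured, all negative, with a median of -0.29. Their mean levels ran from -0.29 to -0.19 in restricted mice and from 0.12 to 0.45 in controls. The 3 measured erythroid genes were negative, with a median of -0.74. The 8 interstitial genes were divided, 3 positive and 5 negative, with a median of -0.23, and ran from Col3a1 at -0.56 to Dcn at 0.55. The 3 leukocyte genes had a median of 0.20, the 2 endothelial genes 0.08, the 1 urothelial gene -0.13, and the 1 intercalated cell gene, Slc4a1, which is also in the erythroid list, -0.74. Ratios give no absolute level, so markers at background cannot be recognised. No thick ascending limb gene was measured. The part of segment makeup in the differences of redox genes was not tested.

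**Figure D4:**
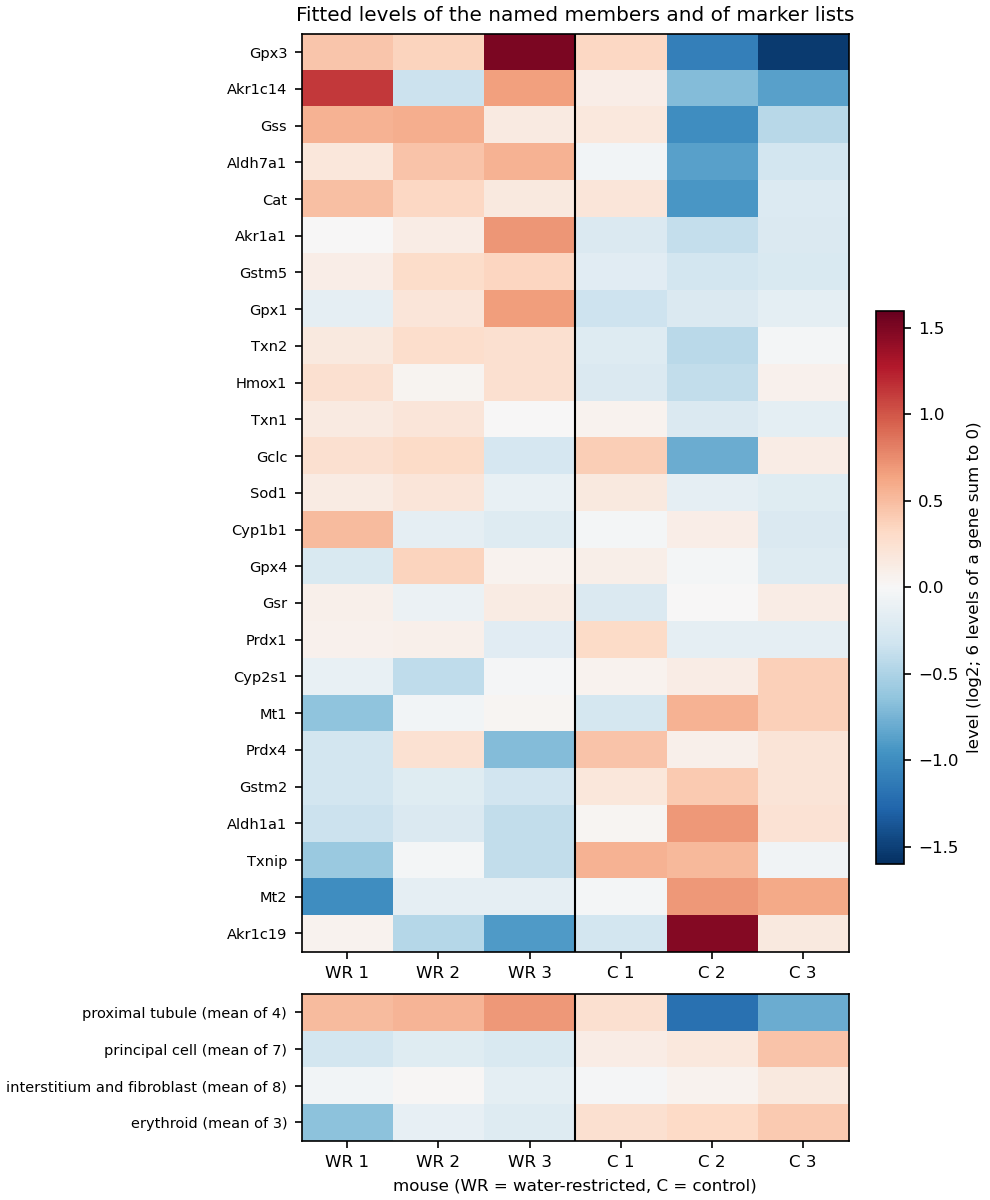
Fitted log2 levels (colour, red above and blue below 0) of the 25 genes given in detail, ordered by difference, and of the mean of 4 marker lists, in 6 mice (columns, black line between groups). The proximal tubule row, at 0.25, -1.20 and -0.79 in control mice 1, 2 and 3, has control mouse 1 above both other controls. So have the rows of Gpx3, Gss, Cat, Aldh7a1, Gclc and others, whereas in Mt1, Mt2 and Akr1c19 control mouse 1 is the lowest control.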

How the data were processed

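Each spot has a single log2 ratio of its channels, as deposited by the authors (31200 spots, 12 arrays, none missing). Base 2 is inferred from the range of these signed values, which reach -15.2. The sources used here do not state the background correction, normalization, centring or numerator dye. Spot pairs were averaged to 15600 clones (duplicates correlated at 0.362 to 0.684 within arrays), and 9191 clones with 1 gene symbol in the platform annotation to 6786 genes. Another 254 clones had several symbols and 6155 had none, and these were not used. The numbers of mice (3 per group) and of arrays limit the precision.

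Signs of the 647 arrays were changed. Dye-swapped arrays correlated, before this, at -0.14, 0.13 and -0.13. Read by dye, 11.5% of clones differed between mice of a group at an unadjusted p under 0.05, and read as already turned, 4.25%. Weighted least squares gave a level per mouse (arrays of a swapped pair weighing 0.5, with a dye term), and limma 3.58.1 in R 4.3.3 compared 3 with 3 levels by lmFit and eBayes, adjusted by Benjamini-Hochberg over 6786 genes. Differences between mice of a group and the dye term were tested by limma on the 12 arrays with equal weights. That weighting was chosen after a fit with weights of 0.5 had been run and seen, and both are kept. The fits were tested on simulated data, with mouse variance at 0.13 of array variance (0.15 as fitted). The comparison of mouse levels recovered 1 of 50 changes of 0.5 on the log2 scale and 31 of 50 changes of 1, with 0 false calls. In 2.54% of unchanged genes its unadjusted limma p was under 0.05. Random mouse effects recovered 24 and 43 of 50, with 14 false calls among 178. Changes of 0.5 were thus mostly missed by the mouse levels.

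The genes and lists were chosen with earlier results of these data known. The genes given in detail were the 8 of smallest p per side, 2 per role group, 4 of largest F, 3 of smallest dye p, and a set of well-known enzymes. Other members are given briefly. From each other list up to 3 genes of smallest p were named. Alternatives covered scaling, weights, dye, single arrays and mice, clones and the reading of the ratios.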

Additional observations from a re-analysis of the deposited data

Results flagged for a closer look

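Within the 6 arrays of an orientation, 3 of 50 groups examined (25 genes, 2 orientations) held 1 array far from the other 5 by Dixon's gap test. The level of that test lets about 1 in 20 groups through by chance. For Gpx3 this was the 647 array of water-restricted mouse 2 with control mouse 1, at -1.23 against 0.99 to 1.76 on the others. For Gpx4 it was the 546 array of water-restricted mouse 2 with control mouse 2, at 0.94 against 0.04 to 0.37, and for Prdx1 the 647 array of water-restricted mouse 3 with control mouse 1, at -0.91 against 0.08 to 0.25.

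Values differed between dye orientations in 7 genes, by the limma test of the dye term. That term is the part of a ratio that keeps its sign when the dyes are exchanged. It is not a test of the difference between groups. Given as the dye term with the differences on the 546 and the 647 arrays, these were Gpx3 (0.56; 2.06 and 1.00), Txnip (0.63; -0.02 and -1.34) and Gss (0.57; 1.40 and 0.29). Prdx4 had a term of 0.31, with -0.18 and -0.83. In Sod1 (0.43), Txnl4a (0.38) and Aldh16a1 (0.31) the orientations gave opposite signs, at 0.55 and -0.29, 0.52 and -0.26, and 0.22 and -0.33.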

How the results depend on the processing

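Of 525 values for the 25 genes given in detail under 21 alternatives, 471 kept their sign and stayed short of the threshold, 27 kept their sign and passed it, and 27 changed sign. With ratios read as already turned, 9 genes changed sign: Txnip had 0.66, Mt2 0.07, Akr1c14 -0.83, Hmox1 -0.02, Cyp2s1 0.03, Prdx4 0.32, Gclc -0.06, Gsr -0.14 and Prdx1 0.08. The other 18 changes fell on 6 genes, with reported differences from -0.02 to 0.19. Prdx1, at -0.02, had 0.02 with equal weights, 0.06 on the 546 arrays, 0.15 with swapped pairs alone, 0.07 without the widest array, and 0.02 and 0.04 under random mouse effects with and without that array; leaving out single mice, it ran from -0.10 to 0.13. Gpx4, at 0.11, had -0.16 on the 647 arrays, -0.14 with swapped pairs and -0.02 under random effects without the widest array. Gsr had -0.07 on the 546 arrays, Sod1 -0.29 on the 647 arrays and Cyp1b1 -0.07 with swapped pairs. Without single mice, Gpx4 ran from -0.04 to 0.25, Gsr from -0.03 to 0.15, Cyp1b1 from -0.12 to 0.24 and Gclc from -0.16 to 0.43.

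For the 56 genes, the median difference was 0.13 on the 546 arrays, where that of all genes was 0.06 and 58% of all genes were positive. The number with an unadjusted p under 0.05, 12 as reported, was 7 on the 647 arrays (8.16% of all genes), 25 with arrays as replicates (20.7%), 20 under random effects with or without the widest array (11.5% and 13.7%), and 2 with ratios read as already turned (5.35%). Without single mice it ran from 3 to 12. With ratios so read, 5 genes separated the groups (11.9%), 13 had a dye term (23.2%, against 4.51% of all genes), and 0 of 6786 genes were called between mice of a group by limma (301 at an unadjusted p under 0.05). Calls were 17 with arrays as replicates (468 of all genes). That setting treats arrays that share a mouse as independent. Under random effects, calls were 4 and 7 (99 and 167 of all genes). On the 647 arrays and with swapped pairs 1 gene of 6786 was called, none of the 56. Between mice of a group 2 of the 56 were called without the widest array (0.737% of all genes). The mouse number as a replicate block gave 13 genes with an unadjusted p under 0.05 and no call. Deviations of same-numbered mice correlated across genes at -0.01, -0.54 and -0.11. Each such pair shares an array, and error on it moves both levels in opposite directions. Whether the numbers pair the mice therefore cannot be decided from these values. The causes of these changes were not tested, except that orientations and single mice leave fewer arrays.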

Other observations

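Control mouse 2 had the level farthest from 0 in 20 of the 56 genes (35.7%), against 25.4% of all genes, and control mouse 3 in 2 (3.57%, against 13.5%). Among the 8 positive genes with an unadjusted limma p under 0.05, control mouse 2 had the lowest level in 6, and control mouse 1 was the highest control in 7. One of the 7 is Akr1a1, in which control mice 1 and 3 both had -0.23. Genes picked for a positive difference mostly have their lowest level in a control, and the share among all genes so picked was not computed. These counts therefore describe the 8 genes only.

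Sources of oxidants showed no common side. Of 6 measured genes (17 listed) 3 were positive, with a median of 0.02. Cyba, a membrane subunit of NADPH oxidases, had 0.53 (SE 0.21), xanthine dehydrogenase, Xdh, 0.32 (SE 0.16), and Cybb, the catalytic subunit in phagocytes, -0.13 (SE 0.21). Of 5 measured xenobiotic receptors and P450 partners (14 listed) 3 were positive, with a median of 0.25, among them Cyb5r3 at 0.38 (SE 0.24), Cyb5a at 0.37 (SE 0.19) and Rxrb at 0.25 (SE 0.18). No gene of these lists passed the limma test after adjustment, on mouse levels or with mice as random effects.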
